A study of Mus musculus with 28 samples.

Results

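Atoh1, Gfi1 and Pou4f3 are the 3 genes that the Dox-inducible mouse embryonic stem cell (ESC) lines of this study carry, in every combination. Their rows (Entrez IDs 11921, 14581 and 18998) were taken by gene, not by level, and they are 3 of 19421 genes measured in 28 RNA-seq libraries. The lines are iAtoh1, iGfi1, iPou4f3, iG+A (Gfi1 and Atoh1), iG+P (Gfi1 and Pou4f3), iP+A (Pou4f3 and Atoh1) and iGPA (all 3). Each gene is therefore carried by 4 lines and missing from the cassettes of 3.

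All 7 lines, untreated cells included, come from A2Lox ESCs, which make the Dox-dependent activator rtTA, and hold 1 cassette behind a Dox-responsive promoter. The cassette is read as 1 transcript, in which self-cleaving 2A peptides separate the factors and mVenus comes last. Where several factors are present, Gfi1 is placed first, then Pou4f3 with a Myc tag, then Atoh1 with a Flag tag. Embryoid bodies (EBs) received 2 µg/ml Dox for 48 h from day 4, and mVenus+ cells were sorted at day 6, whereas untreated EBs (No Dox) were collected whole at day 6. An effect of Dox and an effect of sorting can thus not be told apart within a line. Each of the 14 groups has 2 libraries, from 2 clones of a line according to the series record.

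Atoh1 is a basic helix-loop-helix activator that starts hair cell and certain neuronal fates. It binds E-box DNA together with E proteins. Gfi1 is a zinc finger repressor that is needed for hair cell survival and is also used in blood progenitors. Pou4f3 is a POU homeodomain factor of hair cells and sensory neurons. In the inner ear, Atoh1 is expressed first, and Pou4f3 and Gfi1 follow it in the same cells.

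Reads from a cassette cannot be separated from those of the endogenous gene, because the values are summed to genes and the cassettes were made from the murine coding sequences. The gene-specific parts of the cloning primers show this for Atoh1 and Gfi1. They start at the first coding base, and on the reverse side they stop at the last sense codon, coding bases 1032 to 1053 of 1056 in Atoh1 and 1246 to 1269 of 1272 in Gfi1. Bases are in capitals because all of those shown match the gene (Gfi1 forward over 11 bases), and reverse primers are read on the other strand.
Atoh1 forward: ATGTCCCGCCTGCTGCAT
Atoh1 reverse: ACTGGCCTCATCAGAGTCACTG
Gfi1 forward: ATGCCGCGCTC
Gfi1 reverse: TTTGAGTCCATGCTGAGTCTCTCG

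The endogenous genes lie elsewhere. In NCBIM37, the build that matches the authors' mm9 transcripts, Atoh1 is on chromosome 6 from 64679140 to 64681227 on the plus strand and Gfi1 on chromosome 5 from 108145674 to 108155056 on the minus strand. A line whose cassette lacks a gene holds no transgene copy of it. Libraries were pooled for sequencing, and carry-over of reads between them was not tested. The promoters of the endogenous genes are shown for Atoh1 (1 start) and Gfi1 (2 starts). These are the 250 bases before and 50 after each RefSeq start in GRCm38.p6, with E-box letters (CANNTG, both strands) in capitals.
Atoh1, chr6:64728875-64729174, plus strand: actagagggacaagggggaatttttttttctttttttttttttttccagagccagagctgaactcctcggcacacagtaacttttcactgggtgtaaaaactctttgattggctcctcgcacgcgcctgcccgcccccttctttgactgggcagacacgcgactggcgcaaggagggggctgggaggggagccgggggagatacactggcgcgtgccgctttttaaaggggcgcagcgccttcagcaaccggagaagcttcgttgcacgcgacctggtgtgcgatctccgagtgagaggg
Gfi1, chr5:107725756-107726055, minus strand: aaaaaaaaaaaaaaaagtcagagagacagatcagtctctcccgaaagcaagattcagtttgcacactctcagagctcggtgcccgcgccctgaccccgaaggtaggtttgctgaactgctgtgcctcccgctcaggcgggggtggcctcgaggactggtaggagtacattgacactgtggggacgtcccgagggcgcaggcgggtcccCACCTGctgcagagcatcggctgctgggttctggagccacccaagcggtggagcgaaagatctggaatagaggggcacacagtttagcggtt
Gfi1, chr5:107724294-107724593, minus strand: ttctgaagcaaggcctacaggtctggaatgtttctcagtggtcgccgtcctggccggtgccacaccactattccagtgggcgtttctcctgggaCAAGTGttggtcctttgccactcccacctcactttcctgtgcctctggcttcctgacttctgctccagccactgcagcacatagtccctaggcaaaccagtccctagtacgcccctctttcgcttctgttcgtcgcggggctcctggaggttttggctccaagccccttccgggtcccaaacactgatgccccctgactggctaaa
Each Gfi1 window holds 1 E-box match and the Atoh1 window holds 0. The letters occur in 72.3% of all 32851 promoter windows of this length, so a match is no rarity. The letters AATCNC, the core that Gfi1 binds, and ATTAAT, a POU-type core, were in none of the 3 windows and are in 33.2% and 4.75% of all windows. A missing match says only that these letters are not in these 300 bases.

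Estimated depth was 30.3 to 48.0 M reads, at which 1 read is worth 0.816 to 1.22 normalized counts. All 14 markers of early EB lineages were above 0 in all 28 libraries, with a summed level of 27430 to 66033 normalized counts without Dox and 12970 to 69465 with Dox. Values below are normalized counts as mean ± SD of 2 libraries unless each library is given, and differences are on the scale of log2(normalized count + 1) from 1 limma fit of all 28 libraries. A gene was called when its adjusted p (Benjamini-Hochberg over 16837 genes) was under 0.05 and its log2 difference was at least 1.5 in size.

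Which level did Dox produce in the lines that carry each gene? Atoh1 reached 18996 and 21242 in iAtoh1, 14276 and 16667 in iG+A, 14888 and 12816 in iP+A, and 16728 and 19107 in iGPA. All 8 libraries lie far above every library without Dox and every library of the other lines. Untreated libraries of the same lines held 76.1 and 39.2 in iAtoh1, 83.6 and 120 in iG+A, 29.6 and 46.7 in iP+A, and 87.3 and 92.3 in iGPA. From these means Atoh1 was 349-fold higher with Dox in iAtoh1, 152-fold in iG+A, 363-fold in iP+A and 200-fold in iGPA. The order of these folds is the reverse of the order of the untreated means. Induced means ranged from 13852 ± 1465 to 20119 ± 1588 and untreated means from 38.2 ± 12.1 to 101.8 ± 25.8.

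Gfi1 was induced to a narrower range. Its Dox libraries held 10801 and 9778 in iGfi1, 9936 and 10353 in iG+A, 10729 and 12487 in iG+P, and 8119 and 9464 in iGPA. Without Dox the same lines held 68.8 and 58.1, 102 and 119, 57.9 and 76.8, and 67.6 and 72.6, in that order. No Dox library of a line that carries Gfi1 came near a Dox library, and Gfi1 was 162-fold higher with Dox in iGfi1, 91.9-fold in iG+A, 172-fold in iG+P and 125-fold in iGPA.

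The Dox libraries of lines that carry Pou4f3 held 4694 and 5381 in iPou4f3, 17590 and 19883 in iG+P, 12878 and 10868 in iP+A, and 13037 and 15115 in iGPA. Both libraries of the single-factor line lie below all 6 libraries of the lines with more factors. Without Dox, Pou4f3 held 7.93 and 2.22 in iPou4f3, 22.6 and 45.3 in iG+P, 18.4 and 23.8 in iP+A, and 48.9 and 72.6 in iGPA. The value of 2.22 is that of a few reads, so no fold is given for Pou4f3.

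All 12 Dox effects in carrying lines were called, with log2 differences of 6.51 to 9.87 and a highest adjusted p of 4.55e-10 (limma). For comparison, Dox raised 8.65% of all genes past the same threshold in iGPA, 7.35% in iG+A, 5.16% in iG+P and 4.70% in iP+A. In the single-factor lines it raised 2.89% in iAtoh1, 2.15% in iGfi1 and 1.47% in iPou4f3. The induced level of the single-factor line was then set against iGPA. Atoh1 differed by 0.17 ± 0.33 (SE, adjusted p = 0.728) and Gfi1 by 0.23 ± 0.25 (adjusted p = 0.506), in comparisons in which 10.5% and 9.84% of all genes were called. Pou4f3 was lower in iPou4f3 than in iGPA by a log2 difference of -1.48 ± 0.46 (adjusted p = 0.0157, limma), which is just under the fold threshold and was not called, where 12.4% of all genes were. It passed the threshold without iPou4f3 Dox replicate 2 (-1.58) and without iGPA Dox replicate 1 (-1.59), and its adjusted p rose above 0.05 without iPou4f3 Dox replicate 1 (-1.38, adjusted p = 0.0869) and without iGPA Dox replicate 2 (-1.37, adjusted p = 0.0823).

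Of the 6 pairs of carrying lines, unadjusted 95% intervals of the induced level included 0 for all pairs in Atoh1 and Gfi1. The ends furthest from 0 were 1.24 for Atoh1 (iAtoh1 against iP+A) and 0.93 for Gfi1 (iG+P against iGPA). Differences of up to that size may therefore be present. For Pou4f3 the intervals for iPou4f3 lay below 0 against iG+P (-1.90, interval -2.87 to -0.92), iP+A (-1.23, -2.21 to -0.26) and iGPA (-1.48, -2.46 to -0.51). The 3 other pairs of Pou4f3 included 0, and the order iG+P, iGPA, iP+A among them is within its error. A gene has 1 spread over all groups in this fit, low untreated levels included, so these intervals are wider than the spread of the Dox libraries alone would give.

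**Figure D1:**
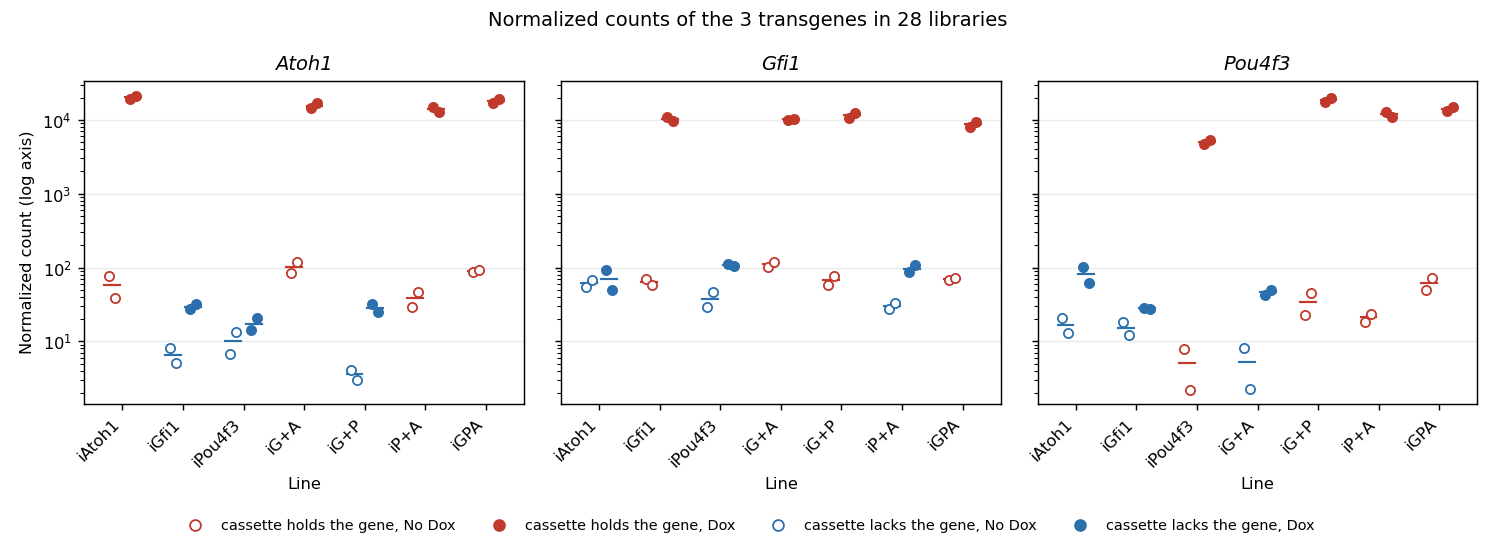
Normalized counts (log axis) of Atoh1, Gfi1 and Pou4f3 in the 7 lines, 1 point for each of 28 libraries and a short line at each group mean; red marks lines whose cassette holds the gene and blue those whose cassette lacks it, open without and filled with Dox. Filled red points lie between 4694 and 21242, and all other points between 2.22 and 120.

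Within 1 cassette the factors share a transcript, so their levels were compared per kb of coding length (1272 bases in Gfi1, 1017 in Pou4f3 and 1056 in Atoh1). The later gene was higher in every Dox library. Pou4f3 exceeded Gfi1 by a ratio of 2.05 and 1.99 in the libraries of iG+P and of 2.01 and 2.00 in those of iGPA. Atoh1 exceeded Gfi1 by 1.73 and 1.94 in iG+A and by 2.48 and 2.43 in iGPA.

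The ratio of Atoh1 to Pou4f3 was closer to 1, at 1.11 and 1.14 in iP+A and 1.24 and 1.22 in iGPA. In iGPA the levels per kb rose along the cassette, from 6383 and 7440 for Gfi1 to 12819 and 14863 for Pou4f3 and 15841 and 18094 for Atoh1. The authors' quantification used whole reference transcripts, whose ends beyond the coding part are not in a cassette, and whether this sets the ratios was not tested.

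**Figure D2:**
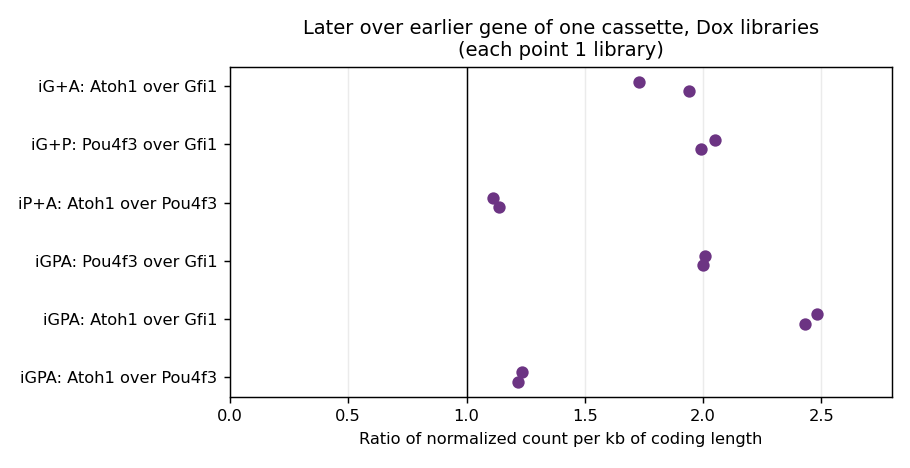
Ratio of normalized count per kb of coding length between 2 genes of the same cassette, the later over the earlier, with 1 point for each Dox library and a line at 1. All 12 ratios lie above 1, from 1.11 (Atoh1 over Pou4f3 in iP+A) to 2.48 (Atoh1 over Gfi1 in iGPA).

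Was a gene already present without Dox because of its cassette? For Atoh1 the 8 untreated libraries of carrying lines held 29.6 to 120 normalized counts (median 79.8) and the 6 of other lines 3.02 to 13.3 (median 5.90). The ranges did not overlap. The log2 difference was 3.23 ± 0.18 (SE, adjusted p = 3.30e-09, limma) and was called, in a comparison in which 0.0475% of all genes were. Over the 7 line means an exact two-sided permutation test gave p = 0.0286 (adjusted 0.0429 over the 3 genes), the smallest p that its 35 relabellings can give. All 4 lines were above the mean of the others, by 2.98 in iAtoh1, 3.84 in iG+A, 2.44 in iP+A and 3.68 in iGPA. Untreated Atoh1 stood at 0.227% to 0.605% of the mean induced level (16840).

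For Gfi1 the untreated libraries held 57.9 to 119 in carrying lines (median 70.7) and 27.3 to 68.6 in other lines (median 39.7), with overlap. The log2 difference of 0.87 ± 0.13 had an adjusted p of 0.0118 (limma) but was under the fold threshold and was not called, where 0.0297% of all genes were. Its adjusted p (limma) rose to 0.374 with iP+A left out (0.66) and to 0.0992 with iG+A left out (0.69). With only the compared groups in the fit it was 0.129. The exact permutation p over line means was again 0.0286, the smallest possible. iG+A stood highest, at 1.41 above the mean of the other lines against 0.62 to 0.76 in iGfi1, iG+P and iGPA. Markers of blood, where Gfi1 is used, were present in the same untreated EBs, with a summed level over 14 markers of 77538 to 504883 normalized counts. Ptprc was the only one of the 14 at 0 in any library (5 of 28), and the part of blood cells in these Gfi1 levels was not tested.

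For Pou4f3 carrying lines held 2.22 to 72.6 without Dox (median 23.2) and other lines 2.25 to 20.5 (median 12.6). The lines did not act alike. iGPA was above the mean of the other lines by 2.41 (95% interval 1.61 to 3.20), iG+P by 1.53 (0.74 to 2.33) and iP+A by 0.94 (0.15 to 1.74), whereas iPou4f3 was below it by a difference of -1.09 (-1.89 to -0.30). The mean difference of 0.95 ± 0.25 was not called (adjusted p = 0.485, limma), in a comparison in which 0.0238% of all genes were, and the exact permutation p was 0.343. With iPou4f3 left out it was 1.63 and passed the threshold (adjusted p = 0.00911). It was 0.41 with iG+A left out (adjusted p = 0.918) and 0.46 with iGPA left out (adjusted p = 0.607), so that its size rests on single lines in both directions. iPou4f3 had both the lowest untreated and the lowest induced level of Pou4f3 among the 4 lines.

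**Figure D3:**
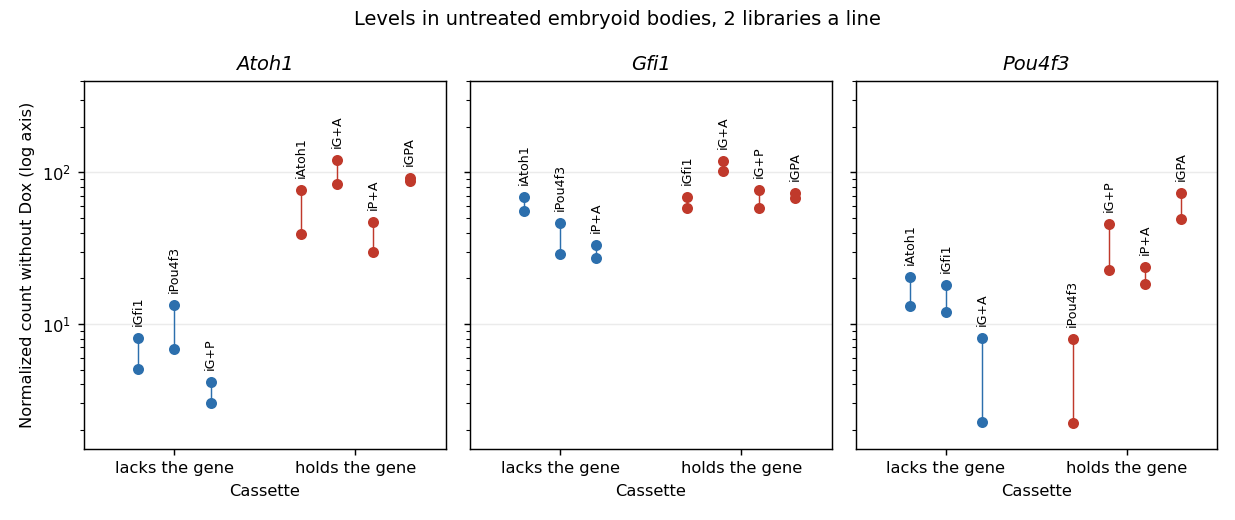
Normalized counts (log axis) in untreated EBs, with 2 joined points for the 2 libraries of each line; blue lines lack the gene in their cassette and red lines hold it. Atoh1 separates the lines completely (3.02 to 13.3 against 29.6 to 120), while Gfi1 and Pou4f3 overlap and iPou4f3 sits among the lines that lack Pou4f3.

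Did the other factors raise the endogenous gene? In lines without Atoh1 in the cassette, Atoh1 rose from 8.05 and 5.01 to 27.1 and 31.9 normalized counts in iGfi1, and from 4.11 and 3.02 to 32.5 and 24.8 in iG+P. In iPou4f3 it held 6.78 and 13.3 without and 14.3 and 20.5 with Dox. Dox libraries lie above No Dox libraries in each of the 3 lines, and the iPou4f3 gap is the narrowest. The log2 difference was 2.04 ± 0.33 in iGfi1 (adjusted p = 2.50e-04) and 2.70 ± 0.33 in iG+P (adjusted p = 4.88e-06), both called, and 0.78 ± 0.33 in iPou4f3 (adjusted p = 0.217, limma), not called. Both lines in which Atoh1 was called carry Gfi1. Both calls were lost with all 14 untreated libraries as the control (0.26 and 0.21, adjusted p = 0.873 and 0.889, limma), which adds the carrying lines and their higher untreated level.

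Marker sums of other cells moved in these lines too. The fibroblast sum went from 128413 and 104237 to 39180 and 47050 in iGfi1, from 66243 and 74937 to 10819 and 14140 in iG+P, and from 170875 and 105250 to 127306 and 62593 in iPou4f3. The EB marker sum went from 46993 and 51684 to 16374 and 19096 in iGfi1 and from 66033 and 53666 to 15466 and 12970 in iG+P, and held 35629 and 37279 without and 42023 and 37370 with Dox in iPou4f3. Most of the fall was that of Hand1, a mesoderm gene, which went from 28557 and 34376 to 4111 and 7322 in iGfi1 and from 47582 and 35487 to 3320 and 3659 in iG+P. Of the 14 EB markers 1 was called down in iGfi1 and 3 in iG+P, with medians of -0.32 and -0.62. Of all genes 2.67% were called down in iGfi1 and 5.36% in iG+P. The neuron sum went from 2386 and 1927 to 1401 and 1389 in iGfi1 and from 1812 and 1942 to 2389 and 2846 in iG+P. The full blood sum went from 264449 and 187357 to 392276 and 217828 in iGfi1 and from 77538 and 149232 to 53984 and 108542 in iG+P. Its 12 markers other than the globins Hbb-bh1 and Hba-x, summed after the data were seen, went from 25064 and 22728 to 58286 and 42208 in iGfi1 and from 18279 and 22987 to 34932 and 47766 in iG+P. In iG+P the sums with and without globins thus moved in opposite directions. The part of these cells in the Atoh1 values was not tested.

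Gfi1, in lines whose cassette lacks it, rose from 29.1 and 46.4 to 113 and 106 in iPou4f3 and from 27.3 and 33.0 to 85.9 and 107 in iP+A. In iAtoh1 it held 55.2 and 68.6 without and 92.0 and 49.7 with Dox, which overlap. The log2 differences were 1.55 ± 0.25 in iPou4f3 (adjusted p = 8.61e-04) and 1.65 ± 0.25 in iP+A (adjusted p = 8.77e-05), both called, and 0.14 ± 0.25 in iAtoh1 (adjusted p = 0.743, limma), not called. Both lines in which Gfi1 was called carry Pou4f3. These 2 calls lie close to the fold threshold. The first was lost without iPou4f3 No Dox replicate 1 (1.22), and the second without iP+A Dox replicate 2 (1.49). Both were lost with all 14 untreated libraries as the control (0.90 and 0.71, adjusted p = 0.145 and 0.136, limma), which adds the carrying lines. The first was also lost with a pseudocount of 5 (1.45) and with only the compared groups in the fit (adjusted p = 0.116, limma).

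The blood marker sum, of which the globins Hbb-bh1 and Hba-x make up 34.3% to 91.7% in a library, went from 502785 and 390609 to 279364 and 265784 in iPou4f3, and from 109738 and 127695 to 17963 and 37191 in iP+A. Over the 12 blood markers other than these globins, a sum added after the data were seen, it went from 41733 and 34488 to 37173 and 39935 in iPou4f3 and from 12488 and 15256 to 7062 and 10384 in iP+A. Of the 14 blood markers 0 were called in iPou4f3. In iP+A 1 was called up (the progenitor marker Cd34, from 221 and 190 to 557 and 651) and 5 down. Of all genes 1.47% were called up and 0.606% down in iPou4f3, and 4.70% and 2.58% in iP+A. The neuron marker sum went from 1885 and 2072 to 4725 and 4492 in iPou4f3 and from 1997 and 2047 to 31478 and 25336 in iP+A, with Neurog1 at 0 in 10 and Neurog2 in 4 of the 28 libraries. The part of these cells in the Gfi1 values was not tested. In bulk libraries, more cells that express a gene and more RNA of it in each cell cannot be told apart.

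Pou4f3, in lines whose cassette lacks it, rose from 20.5 and 13.1 to 101 and 62.6 in iAtoh1 and from 8.13 and 2.25 to 42.4 and 50.04 in iG+A. In iGfi1 it held 18.2 and 12.03 without and 28.0 and 27.7 with Dox. Dox libraries were above No Dox libraries in each line. The log2 differences were 2.21 ± 0.46 in iAtoh1 (adjusted p = 0.00218) and 3.11 ± 0.46 in iG+A (adjusted p = 3.72e-05), both called, and 0.87 ± 0.46 in iGfi1 (adjusted p = 0.178, limma), not called. Both lines in which Pou4f3 was called carry Atoh1. The untreated value of 2.25 in iG+A is that of a few reads. Without that library (No Dox replicate 2) the difference in iG+A was 2.37. The call in iAtoh1 was lost with only the compared groups in the fit (adjusted p = 0.0512), and that in iG+A with all 14 untreated libraries as the control (1.501, adjusted p = 0.109), which adds carrying lines to the control. The neuron marker sum was 2761 and 1704 without and 4651 and 3268 with Dox in iAtoh1, and 1655 and 1926 without and 6248 and 3667 with Dox in iG+A. The blood sum went from 213126 and 194673 to 26556 and 22497 in iAtoh1 and from 504883 and 390129 to 62900 and 82410 in iG+A. The fibroblast sum went from 53921 and 83682 to 31051 and 44154 in iAtoh1 and from 161898 and 114883 to 45331 and 19105 in iG+A, and the part of these cells in the Pou4f3 values was not tested.

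In all, 6 of 9 such effects were called, each of them a rise, against the 1.47% to 7.35% of all genes called up in the 6 lines concerned. An exact two-sided permutation of the Dox labels within lines, chosen after the data were seen, gave p = 0.00926 for Atoh1 and Pou4f3, the smallest of 216 arrangements, and p = 0.0278 for Gfi1 (adjusted 0.0139, 0.0139 and 0.0278). With labels flipped only within pairs of equal replicate number, p was 0.0312 for Atoh1 and Pou4f3 (adjusted 0.0469), the smallest that 64 arrangements can give, and 0.0625 for Gfi1, which missed 0.05. The levels reached in lines without the transgene remained small beside those of a cassette. With Dox, these lines held 0.103% to 0.175% of the mean level of carrying lines for Atoh1, 0.694% to 1.07% for Gfi1 and 0.224% to 0.659% for Pou4f3. At these levels, carry-over of reads from other libraries of the sequencing pool was not tested. Single Dox libraries of the lines without the Atoh1 transgene held 14.3 to 32.5 normalized counts of Atoh1. They barely reached the untreated libraries of carrying lines, the lowest of which held 29.6.

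**Figure D4:**
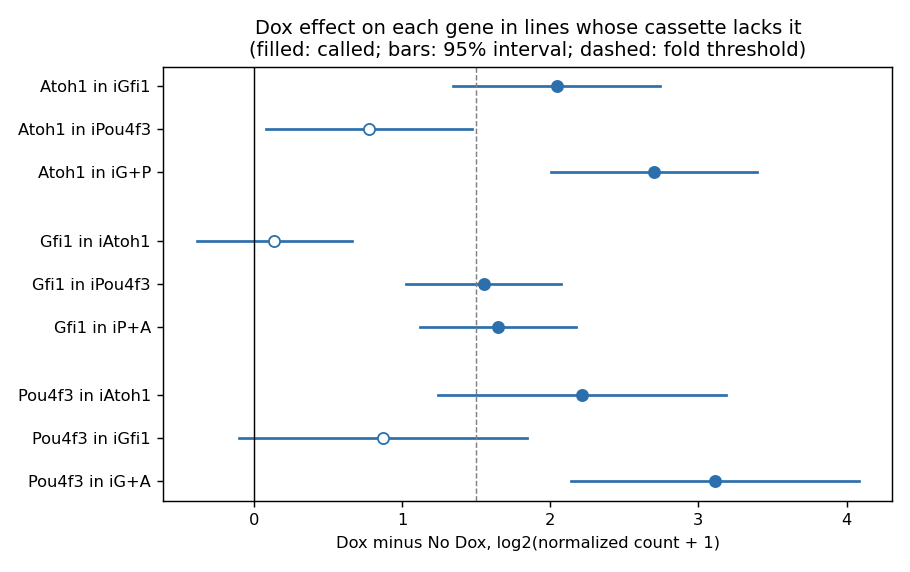
Dox effect on each gene in the 3 lines whose cassette lacks it, as the difference in log2(normalized count + 1) with its 95% limma interval; filled points were called and the dashed line marks the fold threshold of 1.5. Each gene has 2 filled points, in the lines that share 1 factor, and 1 open point between 0.14 and 0.87.

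Did 2 factors act differently from each one alone? For Atoh1 the Dox effect in iG+P exceeded that in iPou4f3 by a log2 difference of 1.92 ± 0.47 (adjusted p = 0.00809), called among 7.63% of all genes, and that in iGfi1 by 0.66 ± 0.47 (adjusted p = 0.535; 1.85% of all genes called). For Gfi1 the effect in iP+A exceeded that in iAtoh1 by 1.51 ± 0.35 (adjusted p = 0.0148), called among 2.78% of all genes, and differed from iPou4f3 by 0.10 ± 0.35 (adjusted p = 0.945; 1.61% called). For Pou4f3 the effect in iG+A exceeded that in iGfi1 by 2.24 ± 0.66 (adjusted p = 0.0172), called among 8.54% of all genes, and differed from iAtoh1 by 0.90 ± 0.66 (adjusted p = 0.398; 6.87% called). All these p-values are from the limma fit. Untreated levels differed between the lines of the called comparisons. Atoh1 means without and with Dox were 3.56 and 28.7 in iG+P against 10.1 and 17.4 in iPou4f3. Gfi1 means were 30.1 and 96.6 in iP+A against 61.9 and 70.9 in iAtoh1. Pou4f3 means were 5.19 and 46.2 in iG+A against 15.1 and 27.9 in iGfi1, and 16.8 and 81.9 in iAtoh1. The part of the untreated levels in these differences was not tested.

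In each gene the 2-factor line was thus set apart from 1 of its single-factor lines and not from the other. The differences that were not called have 95% intervals of -0.33 to 1.64 for Atoh1, -0.64 to 0.84 for Gfi1 and -0.48 to 2.28 for Pou4f3, so an added effect of the second factor within these ranges remains possible. Several of the called differences rested on 1 library. That of Gfi1 lost its call without iAtoh1 No Dox replicate 2 (1.36), iAtoh1 Dox replicate 2 (1.07), iP+A No Dox replicate 1 (1.38) or iP+A Dox replicate 2 (1.35). That of Pou4f3 lost it without iGfi1 No Dox replicate 1 (1.96) or iG+A No Dox replicate 2 (1.498), and that of Atoh1 without iPou4f3 No Dox replicate 2 (1.48). Between the 2 single-factor lines, compared after the data were seen, the Dox effect on Atoh1 was higher in iGfi1 than in iPou4f3 by 1.26 (95% interval 0.28 to 2.25) and that on Pou4f3 higher in iAtoh1 than in iGfi1 by 1.34 (-0.03 to 2.72). That on Gfi1 was lower in iAtoh1 than in iPou4f3, at -1.41 (-2.15 to -0.67).

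Neighbours of the endogenous genes were examined, that of Pou4f3 around its place on chromosome 18 (42554251 to 42555747, plus strand, NCBIM37). Smarcad1 beside Atoh1, Rpap2 and Evi5 beside Gfi1, and Rbm27 beside Pou4f3 were called in none of the 7 lines. Their Dox differences ran from -0.35 (Rbm27 in iG+A) to 0.63 (Smarcad1 in iG+A).

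The loci that serve the transgenes were examined next. In A2Lox cells the cassette stands beside Hprt, which encodes a purine salvage enzyme, and rtTA is made from the Rosa26 locus. Hprt rose with Dox in all 7 lines, by log2 differences of 2.28 ± 0.19 (iAtoh1) to 4.77 ± 0.19 (iG+P), all called. In iGfi1 it went from 345 and 330 to 9733 and 7743 normalized counts, and in iAtoh1 from 535 and 506 to 2617 and 2454. Across lines, Hprt with Dox was 2454 to 4619 in the 8 libraries whose cassette holds Atoh1 and 6955 to 9733 in the 6 others, without overlap, a split noticed in the values and not tested. Without Dox these ranges were 279 to 624 and 277 to 686. Gt(ROSA)26Sor, the transcript of Rosa26, was called in none of the lines, with differences of 0.03 ± 0.18 (iPou4f3, adjusted p = 0.956) to 1.46 ± 0.18 (iGPA, adjusted p = 3.38e-06, limma), the latter just under the fold threshold. Its adjusted p was also under 0.05 in iG+A (0.97), iG+P (0.94) and iAtoh1 (0.76).

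**Figure D5:**
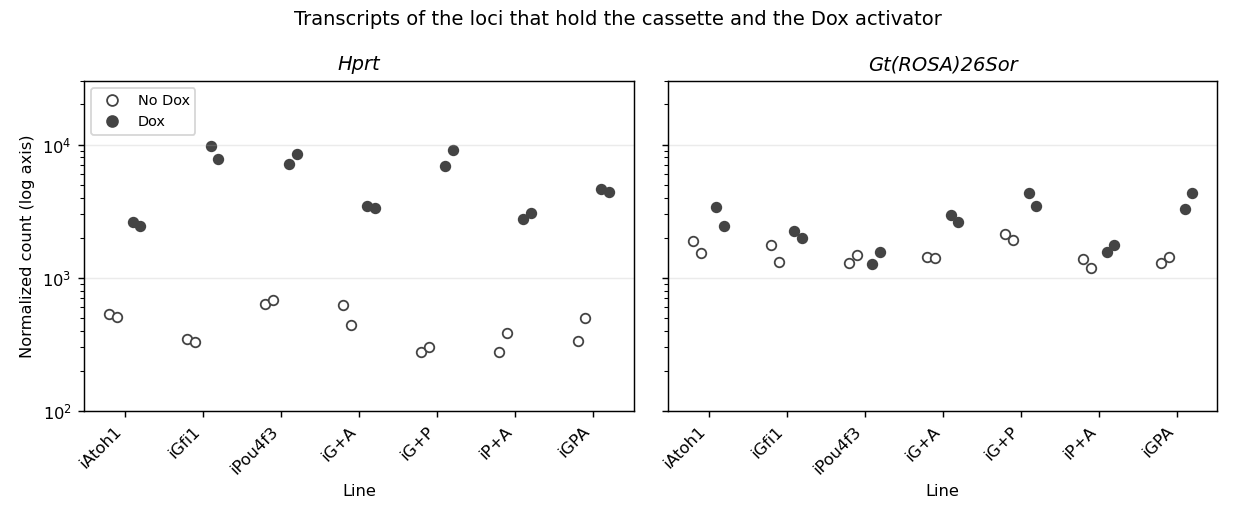
Normalized counts (log axis) of Hprt and Gt(ROSA)26Sor in the 7 lines, 1 point a library, open without and filled with Dox. Hprt is at 2454 to 9733 in Dox libraries and at 277 to 686 in the others, while Gt(ROSA)26Sor lies at 1187 to 2119 without and 1271 to 4329 with Dox.

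Fibroblast markers were called down in 0 (iPou4f3) to 8 (iGPA) of 10 by line and called up in 1 each in iP+A and iGPA. Over all untreated libraries their sum was 53921 to 170875 and over all Dox libraries 9621 to 127306. By line, 0.606% (iPou4f3) to 5.36% (iG+P) of all genes were called down and 1.47% (iPou4f3) to 8.65% (iGPA) up. Of 14 EB markers 0 to 3 were called down and up to 1 up, and of 12 neuron markers 12 were called up in iP+A, 9 in iGPA, 6 in iG+A, 5 in iAtoh1, 3 in iG+P, 2 in iPou4f3 and 0 in iGfi1, with 1 called down in each of iGPA, iG+A, iG+P and iGfi1.

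Other genes of the same families and pathways were described from fixed lists, by how many of the members tested were called. In these Dox comparisons 5.36% of all genes were called down in iG+P, 5.31% in iGPA, 4.95% in iG+A, 2.67% in iGfi1, 2.58% in iP+A, 2.52% in iAtoh1 and 0.606% in iPou4f3, and the median of all genes was -0.03 to 0.02. Of 5 close relatives, 4 passed the filter on low values. Pou4f1, the sensory neuron relative of Pou4f3, was called up in 5 lines, by 1.80 ± 0.50 in iPou4f3 to 6.21 ± 0.50 in iP+A. It held 15.3 and 45.0 without and 2346 and 1752 with Dox in iP+A. In iAtoh1 it did not move past its spread (0.05 ± 0.50, adjusted p = 0.957).

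Gfi1b, the relative of Gfi1 in red blood cell precursors, was called down in the 4 lines that carry Atoh1, by -1.69 ± 0.32 in iP+A to -3.23 ± 0.32 in iG+A. The blood marker sum was lower with Dox in both replicates of the same 4 lines, and also in iPou4f3 and iG+P, where Gfi1b was not called. Without the globins it was not lower in replicate 2 of iG+A (36926 to 41853), iGPA (42164 to 42221) or iPou4f3 (34488 to 39935). The same held for both replicates of iG+P (18279 to 34932 and 22987 to 47766). In iG+A the full sum stood at 504883 and 390129 without and 62900 and 82410 with Dox, and its part in the Gfi1b values was not tested. Atoh8 was called up in iAtoh1 (2.24 ± 0.24) and down in iGfi1 (-1.63 ± 0.24) and iG+P (-1.88 ± 0.24). Pou4f2 was called up in iG+A, iP+A and iGPA, where its Dox libraries held 12.8 to 34.4 normalized counts.

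Few partners of the factors passed the fold threshold. The 3 E proteins, Tcf3, Tcf4 and Tcf12, with which Atoh1 pairs, were called in none of the 7 lines. Smaller shifts were present, such as Tcf4 by 0.54 in iAtoh1 and -0.41 in iGfi1 (adjusted p = 1.61e-04 and 0.00165, limma). Of 8 corepressors of Gfi1, among them Kdm1a and Rcor1, Rcor2 alone was called, in iG+A (2.19 ± 0.16) and iGPA (2.15 ± 0.16). Its difference was 1.47 ± 0.16 in iAtoh1 and 1.41 ± 0.16 in iP+A, just under the threshold, and 0.27 ± 0.16 in iGfi1. Rcor1 rose by 0.62 ± 0.12 in iGfi1 (adjusted p = 8.47e-04, limma), under the fold threshold. Of 9 Id, Hes and Hey repressors, which oppose such activators, 4 were called up in iAtoh1, 4 in iG+A, 4 in iGPA, 3 in iP+A and 3 in iG+P, with 1 down in iG+P (Hey2), and 0 in iGfi1 and iPou4f3. Heyl went from 10.4 and 19.0 to 1062 and 1881 normalized counts in iG+A.

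Of 8 genes known to follow Atoh1, Dox raised 7 in iAtoh1, 6 in iG+A, 8 in iP+A and 6 in iGPA, with medians of 3.56 to 5.77. In lines without the Atoh1 transgene 1 was called up in iGfi1 (the Notch ligand Dll1, 2.36 ± 0.57), 3 in iPou4f3 and 3 in iG+P. Nhlh1, a neuronal basic helix-loop-helix gene, went from 5.12 and 9.03 to 249 and 330 in iG+P and from 4.52 and 12.3 to 104 and 126 in iPou4f3. Of 8 other hair cell transcription factors, which share Barhl1 with the previous list, 4 rose in iG+A, 3 each in iGPA, iP+A, iPou4f3 and iG+P (where Tbx2 fell), 2 in iAtoh1 and 0 in iGfi1. Insm1 reached 5822 and 6019 in iGPA from 13.98 and 8.84. Among factors that act upstream in the otic placode, Eya1 rose in iG+A (2.01), iG+P (1.63) and iGPA (3.06), and Sox2 fell in iG+A (-2.13) and iP+A (-2.34), whereas Gata3 and Pax2 were called in none of the lines.

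Which genes had a pattern most like each transgene over the 14 group means? For Atoh1 they were Gsg1l (Pearson r = 0.96), Kcnh3 (0.96), Cdhr5 (0.95), Ticam2 (0.94) and Slc8b1 (0.94). For Gfi1 they were Pcdhgb2 (0.98), Cpt1b (0.98), Dgkg (0.97), Flrt1 (0.97) and 2900052N01Rik (0.97), and for Pou4f3 Gh (0.98), Shc1 (0.97), Sncg (0.97), C1qb (0.97) and Minar2 (0.96). These values follow mostly from the contrast between the 4 induced groups and the 10 others. Over single libraries, Pcdhgb2, a clustered protocadherin, held 229 to 1185 in the 4 groups with induced Gfi1 and 0 in the 10 others. Single libraries held 2799 to 9112 of Sncg, a synuclein of sensory neurons, with induced Pou4f3 and 10.2 to 74.4 elsewhere. For Kcnh3, a potassium channel subunit, they held 413 to 2225 with induced Atoh1 and 12.6 to 96.0 elsewhere.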

How the data were processed

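The authors extracted RNA from untreated EBs and from sorted mVenus+ cells, used cutadapt for trimming, kallisto for quantification against mm9 transcripts (UCSC knownGene), tximport for gene-level values and DESeq2 for normalization (versions not given in the sources used here). The deposited values are log2(normalized count + 1) for 19421 genes, and the normalized count was recovered by inversion. Whole reads could not be recovered: 72.4% to 79.4% of low values lay within 0.05 of a whole multiple of a library's step. No count test was therefore run, and values below a few reads carry large counting error.

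The filter kept 16837 genes that reached 10 normalized counts in 2 or more libraries. One limma fit (version 3.58.1, R 4.3.3) with a variance trend held all 14 groups and left 14 residual degrees of freedom. P-values were adjusted by Benjamini-Hochberg over all kept genes within a contrast, and the fit was tested on simulated data. Calls need an adjusted p under 0.05 and a log2 difference of at least 1.5. The contrasts compared Dox with No Dox within lines, these effects between lines, untreated carrying lines with others, and induced single-factor lines with iGPA. Fold changes on this scale understate those of low genes.

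Members and gene lists were chosen with earlier results of these data known. Named besides the members are listed genes, the nearest protein-coding genes and the 5 genes most alike in Pearson correlation; some listed items are not reported here. Within each line, deviations of libraries with equal replicate numbers correlated over genes by 0.10 to 0.25, so the numbers were taken as pairs for an alternative fit, but no source states that equal numbers mean the same clone. Positions come from GENCODE M1 (NCBIM37) and promoters from RefSeq (GRCm38.p6). The Gfi1 coding length is the longest open reading frame of its spliced transcript. No protein sequence and no Pou4f3 sequence was used here. Alternatives were other pseudocounts, filters, scalings, limma settings, fold thresholds, control groups, the replicate block and each library left out.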

Additional observations from a re-analysis of the deposited data

Results flagged for a closer look

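Differences between lines in the Dox effect on an endogenous gene passed the test of the difference itself in 3 of 6 comparisons (limma, adjusted over all kept genes). The effect on Atoh1 was larger in iG+P than in iPou4f3 by 1.92 on the log2 scale. The effect on Gfi1 was larger in iP+A than in iAtoh1 by 1.51, which is at the fold threshold. The effect on Pou4f3 was larger in iG+A than in iGfi1 by 2.24. All 3 lost their call with only the compared groups in the fit (adjusted p = 0.0786, 0.201 and 0.0832), and each lost it without at least 1 single library. In 12 sets of 6 or 8 libraries (each gene, with and without Dox, carrying and other lines), 0 had a library that stood apart by Dixon's criterion, where chance would flag about 1 set in 20.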

How the results depend on the processing

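Of 33 results, 22 kept their side of the threshold under all alternatives run and 19 of these also their direction, the 12 Dox effects in carrying lines among them. Of 552 recomputed values 523 kept their side, 23 lost a call and 6 gained one. The sign changed in 6 values, none of them called: for Atoh1 in iPou4f3 (down to -0.49, with all untreated libraries as control), and, leaving out 1 library, for Gfi1 in iAtoh1 (down to -0.30) and Gfi1 in iP+A against iPou4f3 (down to -0.23). With a pseudocount of 5, calls were lost for Gfi1 in iPou4f3 (1.45), for Atoh1 in iG+P against iPou4f3 (1.38) and for Gfi1 in iP+A against iAtoh1 (1.398), and the last was also lost after 75th percentile rescaling (1.48). With only the compared groups in the fit, which leaves fewer libraries for the spread, calls were lost for Gfi1 in iPou4f3 (1.55), Pou4f3 in iAtoh1 (2.21), Atoh1 in iG+P against iPou4f3 (1.92), Gfi1 in iP+A against iAtoh1 (1.51) and Pou4f3 in iG+A against iGfi1 (2.24). With all 14 untreated libraries as the control, which by construction adds carrying lines to it, calls were lost for Atoh1 in iGfi1 (0.26) and iG+P (0.21), Gfi1 in iPou4f3 (0.90) and iP+A (0.71), and Pou4f3 in iG+A (1.501). Pou4f3 in iPou4f3 against iGPA was called after quantile normalization (-1.57), 75th percentile rescaling (-1.51) and at a fold threshold of 1 (-1.48), where it passes by construction. The untreated difference of Pou4f3 was called with iPou4f3 left out (1.63), an alternative added after the data were seen. Leaving out 1 library at a time gave 1.07 to 1.95 for Gfi1 in iP+A against iAtoh1, 1.498 to 2.99 for Pou4f3 in iG+A against iGfi1, 1.48 to 2.36 for Atoh1 in iG+P against iPou4f3, 1.22 to 1.88 for Gfi1 in iPou4f3, 1.49 to 1.80 for Gfi1 in iP+A and -1.59 to -1.37 for Pou4f3 in iPou4f3 against iGPA. Where no construction is named, the cause was not tested. The replicate block, with 7 residual degrees of freedom, changed no call of the 27 results to which it applies; in it the Dox effect on Atoh1 in iGfi1 was again 2.04, and the contrasts of untreated or of induced levels between lines could not be fitted with it. Depth limits mostly Pou4f3 without Dox, where values near 2 stand for a few reads.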
